A study of Mus musculus with 3 samples.

Results

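The comparison described here set CD71-positive Ter119-low erythroblasts of Drosha conditional knockout (cKO) embryos against CD71-positive Ter119-high erythroblasts of control embryos. It used 2 of the 3 RNA sequencing libraries of the series, chosen by their labels, and 10591 of the 15058 genes counted in the series reached 1 CPM, a scaled count relative to library size, in either library and are called measured below. Erythroblasts are the nucleated precursors of red blood cells, and these were sorted from mouse blood at stage E10.5. The control embryos were Drosha fl/fl or Drosha fl/+, with Drosha abundance labelled as wild type (WT). The cKO embryos were Drosha fl/fl;cdh5-cre+, in which Cre recombinase, expressed from the promoter of the endothelial cadherin gene Cdh5, acts on the floxed Drosha alleles. Their Ter119-low cells are labelled as having Drosha as abundant as in WT. The remaining library, from Ter119-high cells of embryos with the same cKO genotype and with Drosha labelled as null, is called the Drosha-null library and is used only to set values beside. Floxed alleles were common to all 3 groups, and 5 embryos were pooled for a library. Gate, genotype and pool all differed between the 2 libraries compared, so their parts in a difference cannot be told apart. With 1 library on each side there was no replicate, and no p-value was computed.

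Erythroblasts of this stage in the embryo's blood belong mostly to the primitive lineage, which arises in the yolk sac and matures in the circulation while filling with embryonic hemoglobin. CD71 is the transferrin receptor, which brings in the iron for heme, and Ter119 is a red-cell surface antigen that becomes abundant as the cells mature. Drosha, with its partner Dgcr8, forms the Microprocessor, which cuts the primary transcripts of microRNAs in the nucleus, and it also cuts hairpins in the messenger RNA of Dgcr8. Dicer then makes the mature microRNA, which pairs through its seed with sites in the 3′ untranslated regions (3′ UTRs) of messenger RNAs and lowers their level. miR-451a and miR-144 come from one primary transcript that is abundant in erythroid cells, and miR-451a is made without Dicer.

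The microRNA sequences are shown because the label of the Ter119-low cells concerns Drosha, whose products they are, and because genes with matches to them are described further on. The seed, bases 2 to 8, is in capitals. The sequences are from RefSeq on GRCm38.p6, where miR-451a lies at chr11:78073186-78073207 and miR-144-3p at chr11:78073047-78073066, both on the plus strand.
miR-451a: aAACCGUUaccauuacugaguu
miR-144-3p: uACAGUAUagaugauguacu
let-7a-5p: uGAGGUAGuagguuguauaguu
miR-16-5p: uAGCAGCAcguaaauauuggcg
miR-92a-3p: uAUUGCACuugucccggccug
miR-17-5p: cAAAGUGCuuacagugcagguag
The 6 microRNAs have 6 different seeds. Windows of 27 bases from the 3′ UTRs of 4 genes described further on follow, written 5′ to 3′ as DNA from the GENCODE M21 transcripts on GRCm38, with the letters that match the seed in capitals (AACGGTT for miR-451a and GCACTTT for miR-17-5p).
Ywhaz: taagggcagaAACGGTTcacattccat
Cab39: ctgttaagtgAACGGTTtttcatttta
Cdkn1a: gacctgaataGCACTTTggaaaaatga
Trp53inp1: gaacagcacaGCACTTTgccaaaaaac
The match begins at base 565 of the 1948 of the Ywhaz 3′ UTR, at base 111 of 2355 in Cab39, at base 436 of 1334 in Cdkn1a and at base 4268 of 4420 in Trp53inp1. A match is a description of the letters and does not show that the site is used.

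The libraries were of like depth, with 9497431 counts in the control, 9418480 in the Ter119-low and 9325822 in the Drosha-null library. Ribosomal RNA took 27.9% to 28.7% of the counts in the 3 libraries. Globin genes took 25% in the control, 23.1% in the Ter119-low and 17.1% in the Drosha-null library. Ratios below are log2 ratios of Ter119-low over control, of counts scaled by TMM (trimmed mean of M-values), with 0.5 counts added. Each has a 95% Clopper-Pearson counting interval, given in brackets. Intervals and floors cover counting error only and not the spread between pools, since each side has 1 library. For a gene without counts in 1 library, a fold by the floor puts 3 counts in their place. It leaves out the counting error of the other library, so the interval can reach closer to equality. Reads that carry no molecular identifiers need not come from different molecules, so the intervals can be too narrow. In bulk samples such as these, fewer cells of a type and less RNA per cell cannot be told apart. A gene was called higher or lower when its ratio was 2 or more either way (1 or more on the log2 scale) and its interval excluded equality. The scale matters for small ratios: scaling by total counts in place of TMM moved all ratios up by 0.0967 (log2).

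By the share of genes called at a ratio of 2, the transcriptomes of Ter119-low cKO and control Ter119-high erythroblasts were close. Of the 10591 measured genes 307 (2.9%) were called higher and 292 (2.76%) lower in the Ter119-low library, together 599 (5.66%). The log2 ratio lay between −0.22 and 0.22 for the middle of the distribution (quartiles) and between −0.85 and 0.89 from the 5th to the 95th percentile. For the Drosha-null library against the same control, 1333 genes (12.4%) were called higher and 841 (7.81%) lower, together 2174 (20.2%) of 10769. The share of genes with ratios within 0.5 of equality (log2) was 78.4% for the Ter119-low and 50.5% for the Drosha-null library. Without the condition on the ratio, the counting interval excluded equality for 2937 genes (27.7%) of the Ter119-low comparison, 1426 above and 1511 below. For the Drosha-null library it did so for 6455 (59.9%). These 2 comparisons share the control library, so they are given side by side and not as independent of each other.

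Calls were concentrated among genes of low count. Of the 599 calls, 568 (94.8%) were of genes under 10 CPM in both libraries. Genes between 1 and 3 CPM had 182 called higher and 167 lower of 1812 (19.3%), whereas those between 10 and 100 CPM had 16 and 13 of 5270. Among the 6345 genes at 10 CPM or more, 17 were called higher and 14 lower (0.489%), and 93.8% had ratios within 0.5 of equality (log2). The same level gave 510 higher and 399 lower of 6655 genes (13.7%) for the Drosha-null library. Of the 58 genes at 1000 CPM or more, 0 were called, and their largest ratio either way was 0.71 (log2). Per kilobase of gene, 95 of the 100 most abundant genes of the control, ribosomal RNA aside, were also among the 100 most abundant of the Ter119-low library. Their ratios ran from −0.71 to 0.26 with a median of −0.19, and 98 of the 100 were within 0.5 of equality.

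**Figure D1:**
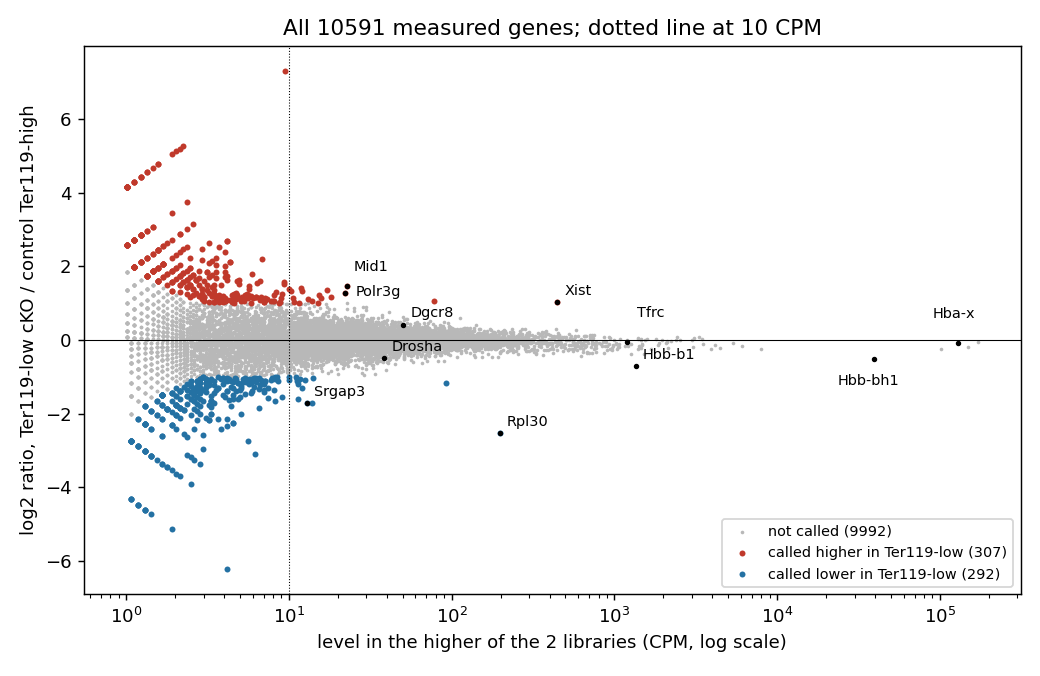
Log2 ratio of Ter119-low cKO over control Ter119-high (y axis) against the level in the higher of the 2 libraries (x axis, CPM on a log scale), 1 point per measured gene. Red and blue points are the 307 genes called higher and the 292 called lower, most of them left of the dotted line at 10 CPM, and named genes are in black.

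Drosha RNA was somewhat lower in the Ter119-low library, with 324 counts in the control against 244 in the Ter119-low library (−0.49 [−0.74 to −0.25]), against 122 in the Drosha-null library (−1.81). The label gives Drosha as abundant as in WT, whereas the interval of the ratio, which covers counting error only, lies wholly below equality. Counts over the whole gene include reads outside a deleted part, so they do not measure intact Drosha RNA. Dgcr8, the Microprocessor partner whose messenger RNA Drosha cuts, had 317 counts in the control, 450 in the Ter119-low and 1658 in the Drosha-null library. Its ratio was 0.42 [0.21 to 0.63] for the Ter119-low and 1.98 for the Drosha-null library. Neither Drosha nor Dgcr8 was called in the Ter119-low library. Dicer1, which makes mature microRNAs from the precursors, had 1147, 1343 and 2074 counts in the control, Ter119-low and Drosha-null libraries (0.14 [0.03 to 0.26] for Ter119-low).

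Tfrc, which encodes CD71, had 9994 counts in the control, 10159 in the Ter119-low and 6862 in the Drosha-null library. Its Ter119-low ratio was −0.06 [−0.10 to −0.02], and 0.04 when scaled by total counts. Cdh5, the gene whose promoter drives the Cre, had 12 counts in the control, 16 in the Ter119-low and 32 in the Drosha-null library.

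**Figure D2:**
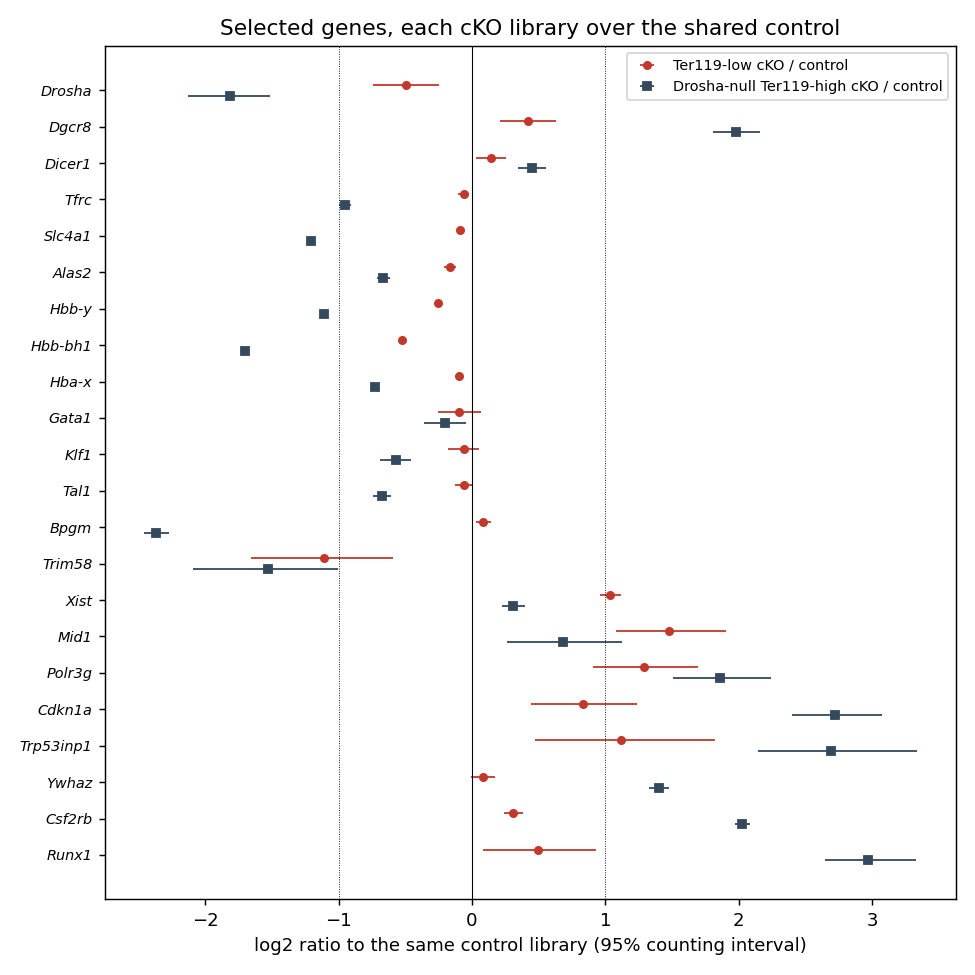
Log2 ratio to the shared control library (x axis) with 95% counting intervals for selected genes, for the Ter119-low cKO library (red circles) and the Drosha-null Ter119-high cKO library (dark squares); dotted lines mark a ratio of 2 either way. The red points of Drosha (−0.49), Dgcr8 (0.42) and Tfrc (−0.06) lie inside the dotted lines, whereas Trim58, Xist, Mid1, Polr3g and Trp53inp1 lie outside them.

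Embryonic globin RNAs were slightly less abundant in the Ter119-low library, with 0 of 3 called and a list median of −0.25 (all measured genes 0.00). Relative to the median of genes of similar length (all measured genes in 10 length classes) it was −0.09. Here and below the class medians include the members of the list, so part of a list's own ratio is subtracted. Hbb-bh1, an embryonic beta-type globin, differed most, with 328997 counts in the control against 242266 in the Ter119-low library (−0.53 [−0.53 to −0.52]). Hbb-y, the embryonic epsilon-type globin, had 855491 and 761814 (−0.25). Hba-x, the embryonic zeta globin and the most abundant of the 3, had 1083439 and 1077084 counts, a ratio of −0.09 by TMM and just above 0 by total counts. The order per kilobase was the same in both libraries, with Hba-x at 204700 and 191900 CPM per kilobase in the control and Ter119-low libraries, Hbb-y at 164500 and 138100, and Hbb-bh1 at 64200 and 44580. The Drosha-null library had 869310, 133985 and 525547 counts of Hba-x, Hbb-bh1 and Hbb-y.

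Adult globins summed to 107499 counts in the control against 95472 in the Ter119-low library, with 1 of 6 measured called higher, 0 lower and a median of −0.22, or −0.06 relative to length classes. The adult alpha globins Hba-a1 (67063 and 59921 counts, −0.25) and Hba-a2 (25699 and 23869, −0.19) were the most abundant. Among the adult beta-type entries Hbb-b1 had 11362 and 7375 counts (−0.71 [−0.75 to −0.67]), and Hbb-b2 had 316 and 698 (1.06 [0.86 to 1.26]), the 1 call. Beta-s, another annotated adult beta-globin entry (Hbb-bs in RefSeq), had 2728 and 3409 counts (0.24). Hbq1b, a theta globin, had 330 and 197 (−0.83 [−1.09 to −0.57]), Hbb-bh2 had 37 and 47, and Hbq1a had 1 and 3. The counts of Hba-a1, Hba-a2, Hbb-b1, Hbb-b2, Beta-s, Hbq1a and Hbq1b were fractional in the deposited tables. Reads of near-identical entries can be split between them, so the opposite ratios of Hbb-b1 and Hbb-b2 are uncertain.

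Heme synthesis genes were near equality, with 0 of 9 called higher, 1 lower and a median of 0.05. Cpox, which oxidizes coproporphyrinogen, was the most abundant by count (11172 in the control against 12407 in the Ter119-low library, 0.07). Alas2, the erythroid enzyme of the first step, had 7368 and 6977 counts (−0.16 [−0.21 to −0.12]). Fech, which inserts the iron, had 4640 and 5298 (0.11 [0.05 to 0.16]). The call was of Alas1, the housekeeping form of the first enzyme, at 32 and 16 counts (−1.06), which was not called when scaled by total counts (−0.97). The list median for the Drosha-null library was −0.65.

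Genes of iron uptake, storage and transport had 0 of 26 called and a median of −0.01, which was above 0 by total counts. The ferritin chains were the most abundant members, with 37213 counts in the control against 33687 in the Ter119-low library for Fth1 (−0.23) and 28479 and 30991 for Ftl1 (0.04). Among members with at least 20 counts in the higher library, the condition for the largest ratios named on the lists below as well, the ratios farthest from 0 were those of Slc25a38, a mitochondrial carrier for heme synthesis (314 and 255 counts, −0.38 [−0.63 to −0.14]), and Aco1, the iron regulatory protein (107 and 146, 0.36 [−0.01 to 0.74]). The Drosha-null library had 145 counts of Slc25a38 and 195 of Aco1.

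Red-cell surface proteins had 0 of 20 called and a median of 0.05. Slc4a1, the band 3 anion exchanger, had 45014 counts in the control, 44906 in the Ter119-low and 25880 in the Drosha-null library (−0.09 for Ter119-low). Ermap, an erythroid membrane protein, had 6393 and 6003 (−0.18), and Rhag, of the Rh complex, had 2155 and 2230 (−0.04). The largest ratios were 0.47 [0.25 to 0.70] for Cd59a, a complement inhibitor with fractional counts (270 and 398), and −0.39 [−0.57 to −0.20] for the nucleoside transporter gene Slc29a1 (537 and 435).

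Genes of the membrane skeleton beneath that surface had 1 of 22 called higher, 0 lower, 15 above equality and a median of 0.09. Spna1 and Spnb1, the erythroid spectrins, had 5235 and 5692 counts in the control and 5969 and 6685 in the Ter119-low library (0.10 and 0.15). Actb, cytoplasmic actin, the most abundant member, had 7425 and 7586 counts (−0.05). The member called was Mpp1, which encodes the palmitoylated protein p55, at 29 counts in the control, 72 in the Ter119-low and 193 in the Drosha-null library (1.21 [0.59 to 1.90]). Spna2, the non-erythroid alpha spectrin, had 71 and 108 counts (0.52 [0.08 to 0.97]).

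Genes of terminal maturation and organelle clearance had 0 of 33 called higher, 1 lower and a median of −0.06, which was above 0 by total counts. Bpgm, which makes the 2,3-bisphosphoglycerate that regulates hemoglobin, had 4550 counts in the control against 5117 in the Ter119-low library (0.08), against 1170 in the Drosha-null library (−2.37). Bnip3l, a receptor for mitochondrial removal, had 1109 and 1254 counts (0.09), and the exportin gene Xpo7 had 1291 and 1455 (0.09). Trim58 was the call, an E3 ubiquitin ligase of late erythroblasts, at 94 counts in the control, 46 in the Ter119-low and 43 in the Drosha-null library (−1.11 [−1.66 to −0.59]). Gabarapl1, an autophagy gene, had 184 and 136 (−0.52 [−0.85 to −0.19]), and ubiquitin gene Ubb had 2384 and 2231 (−0.18).

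Erythroid transcription factors had 0 of 29 called higher, 2 lower and a median of −0.06, which was above 0 by total counts. Gata1, the central erythroid factor, had 632 counts in the control against 628 in the Ter119-low library (−0.09 [−0.26 to 0.07]). Klf1, activator of globin and many erythroid genes, had 1260 and 1279 (−0.06), and Tal1 had 3646 and 3708 (−0.06). Lmo2 and Ldb1, which bridge GATA and TAL factors, were at 331 and 261 counts (−0.43 [−0.67 to −0.19]) and at 798 and 660 (−0.36 [−0.51 to −0.21]). Hemgn, the most abundant member, had 5664 and 5406 counts (−0.15). Both calls rested on few counts. Sox6, which represses embryonic globin genes in definitive cells, had 18 counts in the control against 7 in the Ter119-low library (−1.39). Myb, a progenitor and definitive erythroid factor, had 11 and 0, which was 3.89-fold lower by the floor of 3 counts (interval up to −1.41, log2).

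The erythropoietin and cytokine signalling list had 0 of 21 called and a median of −0.03, which was above 0 by total counts. Epor, the erythropoietin receptor, had 1177 counts in the control, 1138 in the Ter119-low and 1151 in the Drosha-null library (−0.13 for Ter119-low). Csf2rb, the common beta chain of cytokine receptors, had 2966, 3901 and 16030, with fractional counts in the tables (0.31 [0.24 to 0.38] for Ter119-low and 2.03 for Drosha-null). The largest ratios with 20 counts or more were of Fam132b, which encodes erythroferrone (21 and 13 counts, −0.76), and of the kinase gene Pim2 (66 and 45, −0.63 [−1.22 to −0.07]).

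Blood progenitor genes had 0 of 20 called higher and 4 lower, with a median of −0.18 (all measured genes 2.9% called higher and 2.76% lower). The sign of the median depended on members of low count: over members at 10 CPM or more it was 0.19, and the members together had 847 CPM in the control against 899 in the Ter119-low library. The Drosha-null library had 8 of 23 called higher, 1 lower and a median of 0.41 (all genes measured for it 12.4% higher and 7.81% lower). The lower calls in the Ter119-low library were of Igf2bp2, an RNA-binding protein gene (96 counts in the control against 44 in the Ter119-low library, −1.20 [−1.76 to −0.68]), Gata2 (11 and 3), Hoxa9 (14 and 5) and Myb (11 and 0). Scaling by total counts ended the calls of Gata2 (−1.70) and Hoxa9 (−1.39). Gata2, Hoxa9 and Myb were under 1 CPM in the Ter119-low library. They were thus measured through the control alone, which favours a lower call, and of all genes between 1 and 3 CPM 19.3% were called. Runx1, which is needed for definitive blood stem cells to form, had 80 counts in the control, 120 in the Ter119-low and 836 in the Drosha-null library (0.50 [0.08 to 0.93] against 2.97). Myc had 1956 and 1770 counts (−0.23).

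**Figure D3:**
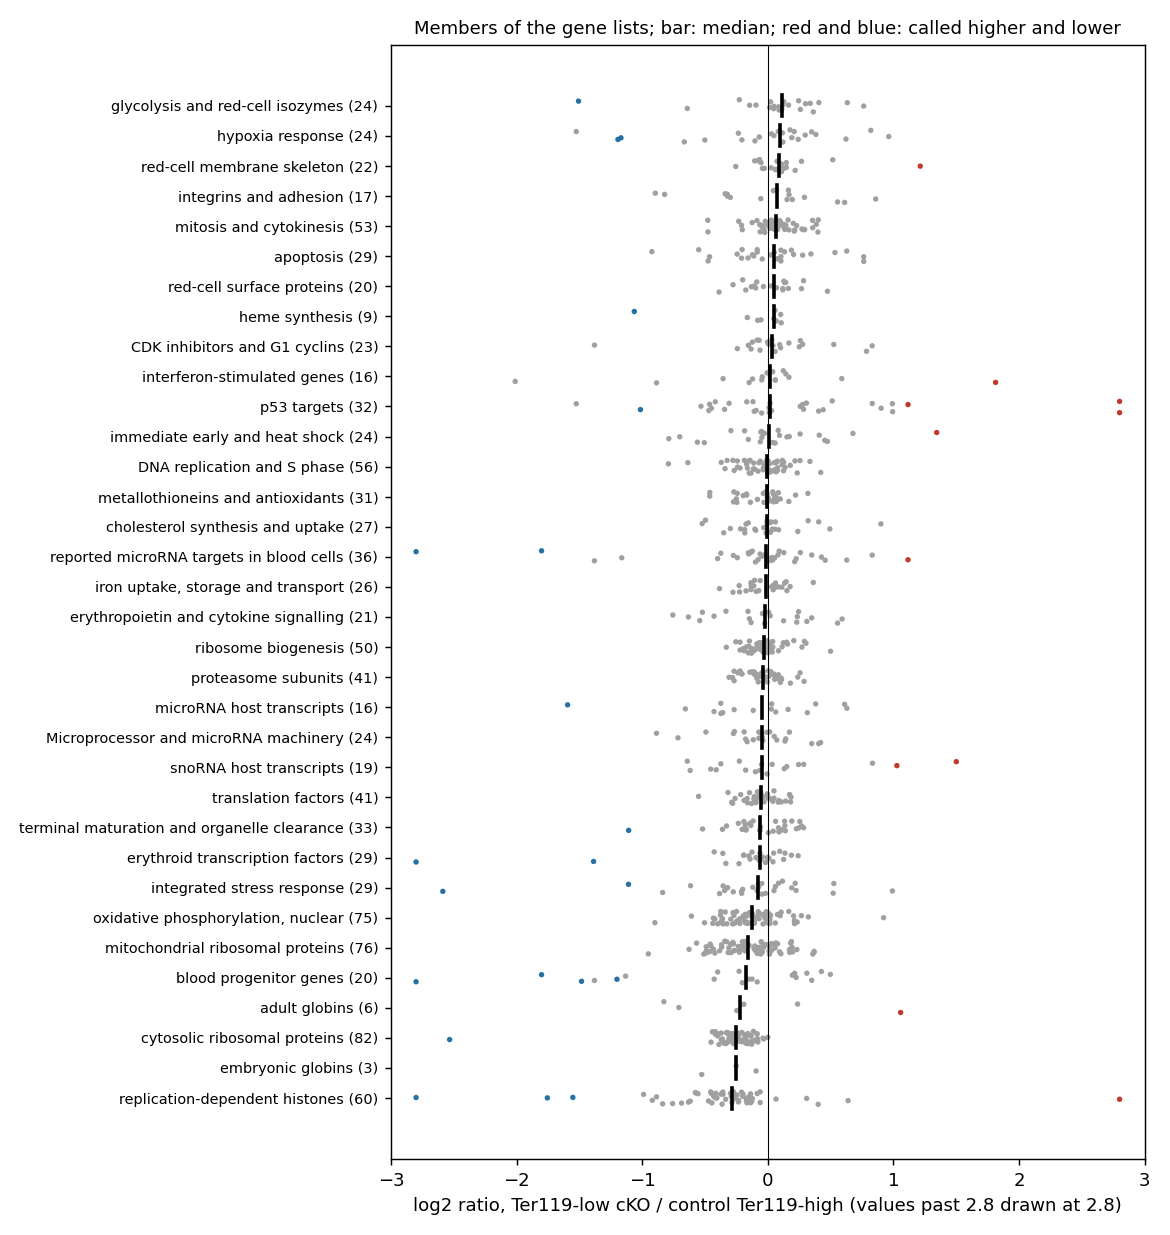
Log2 ratio of Ter119-low cKO over control (x axis) for the measured members of 34 gene lists (number measured in parentheses), ordered by median (black bar), with members called higher in red and lower in blue. The medians run from −0.29 for replication-dependent histones to 0.11 for glycolysis, and 17 of the lists have 0 called members.

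Across the 34 lists of biological function 1037 different genes were measured, of which 10 were called higher (0.964%, against 2.9% of all measured genes) and 18 lower (1.74%, against 2.76%). The called share depends on level (19.3% of genes between 1 and 3 CPM, 0.489% at 10 CPM or more). The lists were not matched to all genes by level, so these shares are not like for like. Among genes at 10 CPM or more, Mid1, an X-linked ubiquitin ligase gene, was the highest, with 68 counts in the control, 202 in the Ter119-low and 145 in the Drosha-null library (1.48 [1.08 to 1.91]). Xist, the RNA that coats the inactive X chromosome, was by far the most abundant by count of the genes called higher, with 1818, 3958 and 2993 counts (1.04 [0.96 to 1.12]) and fractional counts. Per kilobase Hbb-b2, also called higher, was more abundant in the Ter119-low library, at 124 CPM per kilobase against 29.1 for Xist. Tsix, transcribed antisense across Xist, had 96, 204 and 170 (0.999 [0.65 to 1.37]) and fell just short of a call. Whether the counting used strand is not given in the sources used here, so reads of Xist and Tsix cannot be told apart. The labels give no sex of the pooled embryos.

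Polr3g, a subunit of RNA polymerase III, had 76 counts in the control, 198 in the Ter119-low and 367 in the Drosha-null library (1.29 [0.91 to 1.70]). Acsl4, which activates fatty acids, had 51, 117 and 226 (1.10). The mitochondrial carnitine carrier gene Slc25a20 had 56, 152 and 141 (1.35 [0.91 to 1.83]). Mageb16, an X-linked gene of the MAGE family, had 37, 106 and 50 (1.42), and was thus high in the Ter119-low library and near the control in the Drosha-null library (0.02). Scaper (40 and 108 counts in the control and Ter119-low libraries), Frmd8 (34 and 92) and Alg9, of N-glycan assembly (55 and 136), had ratios of 1.34, 1.34 and 1.21.

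Rpl30, a protein of the large ribosomal subunit, was the lowest, with 1656 counts in the control, 303 in the Ter119-low and 221 in the Drosha-null library (−2.53 [−2.72 to −2.36]). Its counts are fractional, and ribosomal protein genes have many near-identical copies in the genome, so the value is uncertain. Srgap3, a regulator of Rac, had 109, 35 and 54 (−1.71 [−2.32 to −1.16]). Rnf13, a ubiquitin ligase gene, had 101, 43 and 102 (−1.31), and Igf2bp2 had 96, 44 and 99. For Rnf13 and Igf2bp2 the Drosha-null ratios were −0.39 and −0.36, so that the Ter119-low library was the lowest of the 3.

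Mapk8, the stress kinase JNK1, had 245 counts in the control, 135 in the Ter119-low and 214 in the Drosha-null library (−0.94 [−1.26 to −0.64]). Ndufa2, of respiratory complex I, had 236, 134 and 170 (−0.90), and neither gene reached a ratio of 2. The cytokine gene Flt3l (95 and 47 counts in the control and Ter119-low libraries, −1.09), Ptpla (106 and 53, −1.08) and B4galt6 (119 and 61, −1.04, fractional) were called, and total-count scaling ended these 3 calls (−0.996, −0.98 and −0.95). By total counts all 17 genes called higher at 10 CPM or more were called again, and 8 of the 14 called lower.

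The Microprocessor and microRNA machinery list had 0 of 24 called in the Ter119-low library and a median of −0.05, which was above 0 by total counts. For the Drosha-null library 5 were called higher and 1 lower (12.4% and 7.81% of all genes measured for it). Xpo5, which exports microRNA precursors, had 649 counts in the control against 665 in the Ter119-low library (−0.05). Eif2c2, which encodes Argonaute 2, the slicer that matures miR-451a, had 1888 and 1949 (−0.04). Tnrc6b, a GW182 protein that carries out silencing, had 5613, 6542 and 13948 in the control, Ter119-low and Drosha-null libraries (0.14 and 0.91). Ran, the GTPase that works with exportins, had 6947 and 6797 (−0.12). The largest ratios were those of the RNA editor gene Adar (91 and 52, −0.89 [−1.41 to −0.38]) and the exonuclease gene Dis3l2 (104 and 67, −0.72 [−1.18 to −0.26]).

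MicroRNA host transcripts, which carry microRNA hairpins, had 0 of 16 called higher, 1 lower and a median of −0.04, which was above 0 by total counts. H19, the imprinted RNA that hosts miR-675, was the most abundant, with 12827 counts in the control, 10497 in the Ter119-low and 6311 in the Drosha-null library (−0.37 [−0.41 to −0.34]). Ank1, host of miR-486, had 5676 and 6288 (0.06). Mir17hg, host of the miR-17 to miR-92a cluster, had 309, 272 and 461 (−0.27 [−0.51 to −0.03] for Ter119-low). The call was of Dleu2, the host of miR-15a and of miR-16-1, at 18, 6 and 73 counts (−1.59 [−3.29 to −0.27]), which lay below the control in the Ter119-low and above it in the Drosha-null library. Rian had 27 and 18 counts in the control and Ter119-low libraries, and Egfl7, host of miR-126, had 12 and 20.

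Genes reported as microRNA targets in blood cells had 1 of 36 called higher, 2 lower and a median of −0.01, which was above 0 by total counts. The Drosha-null library had 10 of 38 called higher, 1 lower and a median of 0.24 (all genes measured for it 12.4% higher and 7.81% lower). Ywhaz, a 14-3-3 protein gene and a target of miR-451a whose match is printed above, had 1903 counts in the control, 2135 in the Ter119-low and 6662 in the Drosha-null library (0.08 [−0.01 to 0.17] against 1.40). Cab39, also with a miR-451a match printed above, had 320, 317 and 476 (−0.10 and 0.16). Trp53inp1, a p53-induced autophagy gene with a miR-17-5p match, was the member called higher, with 28, 65 and 244 counts (1.12 [0.47 to 1.83] and 2.69). Cdkn1a, which encodes the cell cycle inhibitor p21 and also has a miR-17-5p match, had 83, 157 and 729 (0.83 [0.44 to 1.24] and 2.72). Ccnd3, a G1 cyclin and the most abundant member, had 3347, 3628 and 3160 (0.03 for Ter119-low), and Hmga2, with 4 let-7 matches in its 3′ UTR, had 196, 187 and 345 (−0.15). Both lower calls, Gata2 and Myb, are described with the progenitor genes.

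Over all genes, a 3′ UTR match to the miR-451a seed went with a slightly higher median ratio. Of the 10591 measured genes 10171 (96%) had an annotated 3′ UTR, which was searched on its own strand for the 7 bases that pair with the seed. The miR-451a match AACGGTT was in 234 genes (2.3%), whose median was 0.07 against −0.00 for the 9937 without it. Of the 234, 6 were called higher (2.56%) and 3 lower (1.28%), against 2.78% and 2.64% of genes without a match. The medians for the Drosha-null library were 0.48 and −0.05. Genes with a match also had longer 3′ UTRs (median 2447 against 1430 bases), and the part of length in the difference of the medians was not tested. Subtracting the median of each gene's length class gave 0.06 for the genes with a match.

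The other 5 seeds showed smaller differences. Genes with a match had medians of 0.04 for miR-92a-3p (837 genes), 0.02 for miR-17-5p (1629) and 0.01 each for miR-144-3p (1511), let-7a-5p (1271) and miR-16-5p (2928), while those without were between −0.01 and 0.00. Relative to length classes the median stayed above 0 for miR-92a-3p (0.01) and was just below 0 for miR-144-3p, let-7a-5p and miR-16-5p (each −0.01) and for miR-17-5p (−0.00). These matches were in 8.23%, 16%, 14.9%, 12.5% and 28.8% of genes. The Drosha-null medians of genes with a match were 0.25, 0.15, 0.12, 0.08 and 0.05. Called shares of genes with a miR-92a-3p match were 3.7% higher and 2.39% lower, near the 2.9% and 2.76% of all measured genes.

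**Figure D4:**
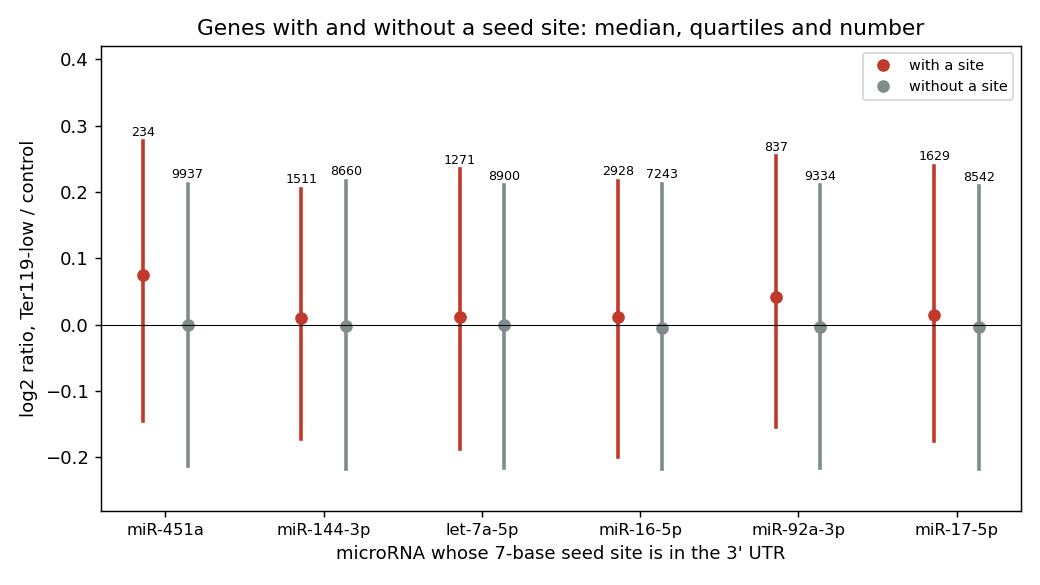
Median (points) and quartiles (bars) of the log2 ratio, Ter119-low over control, for genes with (red) and without (grey) a 7-base match to the seed of each microRNA in the 3′ UTR; the number of genes stands above each bar. The quartile bars overlap throughout, and the median of miR-451a match genes (0.07) is the farthest from that of genes without a match.

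p53 target genes had 3 of 32 called higher, 1 lower and a median of 0.01 (all measured genes 2.9% called higher and 2.76% lower). Against the same control 11 of 33 were called higher and 3 lower for the Drosha-null library (median 0.51), where 12.4% of all genes were called higher and 7.81% lower. Besides Trp53inp1 the higher calls were of the stress gene Gadd45b, with 0 counts in the control against 14 in the Ter119-low library, and the death receptor gene Eda2r, with 0 and 9. By the floor these were 4.40-fold and 2.83-fold higher, with intervals from 1.645 and from 0.896 (log2). Both were measured through the Ter119-low library alone, at 1.57 and 1.01 CPM, which favours a higher call. Of all genes between 1 and 3 CPM 19.3% were called. Zmat3 (134, 266 and 839 counts in the control, Ter119-low and Drosha-null libraries, 0.90 [0.60 to 1.22] for Ter119-low) and Sesn2 (41, 87 and 88, 0.99 [0.45 to 1.57]) had intervals above 0 and ratios short of 2. Ccng1 had 742, 941 and 3388 (0.26 [0.12 to 0.40]), and Mdm2, the inhibitor of p53, had 546, 591 and 892 (0.03). Trp53 itself had 1591 and 1582 counts (−0.09). The lower call was of Trp53inp2, at 69 and 36 counts (−1.01), which total-count scaling ended (−0.92). The same scaling brought Sesn2 past the call (1.09), so that the list had 4 called higher and 0 lower by total counts.

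The apoptosis list had 0 of 29 called and a median of 0.05. Its most abundant members were Cycs, cytochrome c (1584 counts in the control against 1418 in the Ter119-low library, −0.24, fractional), and the anti-apoptotic gene Mcl1 (916 and 1065, 0.13). The initiator caspase gene Casp8 had 12 counts in the control, 22 in the Ter119-low and 175 in the Drosha-null library (0.76 [−0.29 to 1.94]).

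Cell cycle genes had no calls in 3 lists. DNA replication and S phase genes had 0 of 56 called and a median of −0.00, mitosis and cytokinesis genes 0 of 53 and 0.07, and CDK inhibitors and G1 cyclins 0 of 23 and 0.03, the first of which was 0.09 by total counts. Mki67, the proliferation marker, had 20003 counts in the control against 21186 in the Ter119-low library (−0.00), and Top2a, which untangles chromosomes, had 3501 and 4102 (0.14). Of the mitosis genes 37 of 53 lay above equality, among them the cyclin gene Ccnb2 (540 and 755, 0.40 [0.24 to 0.56]) and the kinase gene Aurka (378 and 524, 0.39 [0.19 to 0.58]), with Pttg1 (100 and 76) and Cks2 (281 and 214) at −0.48. Pcna, the polymerase clamp, had 3297 and 3229 (−0.12), whereas the histone chaperone gene Chaf1b had 250, 153 and 383 in the control, Ter119-low and Drosha-null libraries (−0.79 [−1.09 to −0.50]).

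Cytosolic ribosomal protein genes showed a small difference in one direction. All 82 had ratios below 0 by TMM and 74 of 82 by total counts, with medians of −0.25 and −0.15. Rpl30 was called, 1 of 82. The most abundant by count were Rps2 (17965 in the control against 16284 in the Ter119-low library, −0.23) and Rpl4 (17573 and 17608, −0.08), and after Rpl30 the lowest was Rpl34 (1499 and 1162, −0.45, fractional). The Drosha-null median was −0.82. Many of these genes are short, and short genes as a whole had lower ratios. The median relative to each gene's length class was −0.11. The class medians include these genes themselves, and the part of length was not tested.

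Mitochondrial ribosomal proteins had 0 of 76 called and a median of −0.16, and nuclear genes of oxidative phosphorylation 0 of 75 and −0.12. Mrpl18, the most abundant of the first list, had 846 and 882 counts in the control and Ter119-low libraries (−0.02), Mrpl15 had 677 and 579 (−0.31), and the lowest were Mrpl55 (46 and 25, −0.95) and Mrpl11 (258 and 177, −0.63 [−0.91 to −0.35]). Of the second list, the ATP synthase genes Atp5b (19419 and 21711, 0.08) and Atp5a1 (5944 and 6568, 0.06) were the most abundant, and Ndufs5 (63 and 127, 0.92, fractional) and Ndufa2 had the largest ratios. By total counts Ndufs5 was called higher (1.02). Relative to length classes the medians of the lists were −0.04 and −0.01.

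Ribosome biogenesis genes had 0 of 50 called and a median of −0.03, translation factors 0 of 41 and −0.06, and proteasome subunits 0 of 41 and −0.04, and each of these medians was above 0 by total counts. The nucleolar proteins Ncl (13121 and 14059 counts in the control and Ter119-low libraries) and Npm1 (12020 and 13091) had ratios of 0.01 and 0.04, and Rrs1 (204 and 306, 0.50 [0.24 to 0.76]) and Nop10 (593 and 500, −0.33) the largest. Among translation factors Eef1a1, which delivers aminoacyl-tRNA, had 35046 and 33964 (−0.13, fractional), Pabpc1 had 25373 and 26844 (−0.00), Eif4ebp1, a brake on initiation, had 202 and 146 (−0.55 [−0.87 to −0.24]), and Eif1 had 1667 and 1419 (−0.32). Of the proteasome Psme3 had 3771 and 4065 (0.02), Psma5 had 2114 and 1945 (−0.20), Psma7 had 1168 and 1000 (−0.31), and the assembly factor Psmg1 had 311 and 403 (0.29).

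The snoRNA host transcripts, which carry small nucleolar RNAs in their introns, had 2 of 19 called higher, 0 lower and a median of −0.05, above 0 by total counts. Those called were 2700023E23Rik (10 counts in the control, 31 in the Ter119-low and 10 in the Drosha-null library) and Tmem107 (15, 33 and 17). The chaperonin gene Cct6a (4306 and 4546, −0.01) and Prrc2a (3102 and 3602, 0.13) were the most abundant. Of the 19, 10 were called lower in the Drosha-null library (median −1.04), against 7.81% of all genes measured for it.

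Replication-dependent histone genes, whose messenger RNAs lack a poly(A) tail, had a median of −0.29, with 1 of 60 called higher and 3 lower. Of the 60, 55 were below 0 by TMM and 52 by total counts. The most abundant were the linker histone gene Hist1h1e (4414 counts in the control against 3986 in the Ter119-low library, −0.23, fractional) and Hist1h4d (2516 and 2171, −0.30). The calls were of Hist1h2ah (52 and 6, −3.10), Hist1h4k (17 and 5), Hist1h2ae (23 and 8) and Hist1h2ad (0 and 18). Hist1h2ad was 5.66-fold higher by the floor, with an interval from 2.05 (log2). All 4 have fractional counts, and histone genes are near-identical copies, so these ratios are uncertain. Relative to length classes the list median was −0.15.

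Gene length moved with the ratio mainly at the short end. The shortest of 10 length classes (up to 1144 bases) had a median of −0.16, with 18 called higher and 43 lower of 1060. The other 9 classes had medians between −0.03 and 0.06. The Drosha-null medians went from −0.59 in the shortest class to 0.29 in the longest. RNA quality of the libraries is not given in the sources used here, and its part in these values was not tested.

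**Figure D5:**
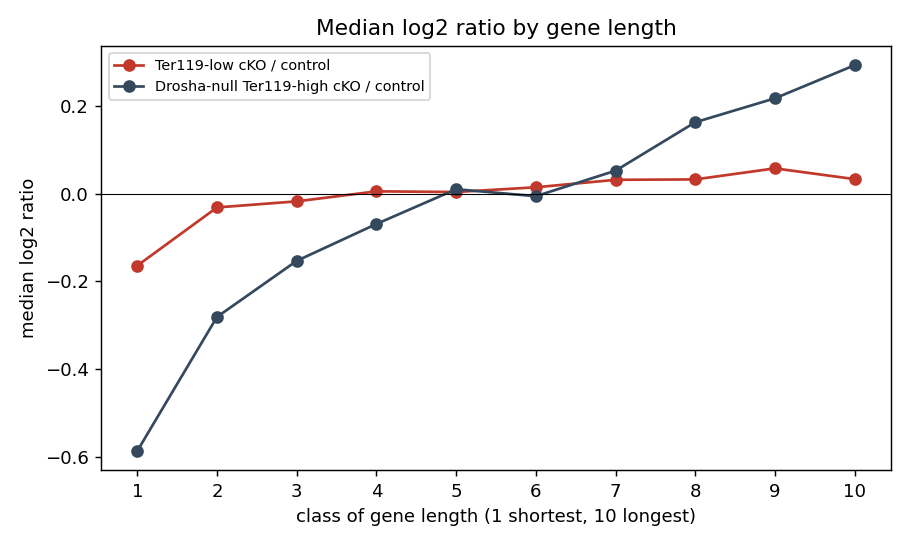
Median log2 ratio to the control (y axis) in 10 classes of gene length from shortest to longest (x axis), for the Ter119-low (red) and the Drosha-null (dark) library. The Ter119-low medians are flat near 0 beyond the shortest class (−0.16), and the Drosha-null medians climb from −0.59 to 0.29.

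Glycolysis and red-cell isozyme genes had a median of 0.11, with 0 of 24 called higher, 1 lower and 19 above equality. Pkm, the pyruvate kinase of most tissues, had 893 counts in the control, 1255 in the Ter119-low and 3358 in the Drosha-null library (0.41 [0.28 to 0.53]). Pklr, the pyruvate kinase of red cells and liver, had 3292, 3769 and 791 (0.11 [0.04 to 0.18]), below the control in the Drosha-null library alone. The hexokinase genes Hk1 (446 and 608, 0.36 [0.18 to 0.54]) and Hk2 (27 and 49, 0.76 [0.07 to 1.51]) were also above equality, and Gapdh, the most abundant, had 14954 and 16099 (0.02, fractional). The call was of Ldhb, the heart-type lactate dehydrogenase, at 33 and 12 counts (−1.51 [−2.63 to −0.55]).

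The hypoxia response list had 0 of 24 called higher, 2 lower and a median of 0.10. Slc2a1, the main glucose transporter, had 1417 and 1633 counts in the control and Ter119-low libraries (0.12), and Narf had 1187 and 1091 (−0.21). The calls were of Vhl, which marks HIF factors for destruction (48 and 22, −1.19 [−2.01 to −0.45]), and the HIF target Ankrd37 (26 and 12, −1.17). Hif1a itself had 391 and 429 (0.05).

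The integrated stress response list had 0 of 29 called higher, 2 lower and a median of −0.08, above 0 by total counts. Atf4, its transcription factor, had 2357 counts in the control, 2467 in the Ter119-low and 1208 in the Drosha-null library (−0.02 against −1.37). The cystine transporter gene Slc7a11 had 6110 and 6157 in the control and Ter119-low libraries (−0.07). The calls were of the cationic amino acid transporter gene Slc7a3, with 25, 4 and 3 counts in the control, Ter119-low and Drosha-null libraries (−2.59), and of Pck2, mitochondrial PEPCK, with 29, 14 and 39 (−1.11). By total counts Sesn2, also on this list, was called higher.

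Metallothionein and antioxidant genes had 0 of 31 called (median −0.01) and cholesterol genes 0 of 27 (−0.01), and both medians were above 0 by total counts. Gpx1, a glutathione peroxidase, had 17753 and 18622 counts in the control and Ter119-low libraries (−0.02), and the peroxiredoxin gene Prdx2 had 7616 and 7178 (−0.17). The zinc importer gene Slc39a10 (95 and 73) and Prdx5 (130 and 100) had ratios of −0.46. Of the cholesterol genes Srebf2, the regulator, had 851 and 840 (−0.10), Mvk had 23 and 46 (0.90) and Stard4 had 179 and 132 (−0.52).

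Interferon-stimulated genes had 1 of 16 called higher, 0 lower and a median of 0.02, against 9 of 20 called higher and 0.89 for the Drosha-null library. Of all measured genes 2.9% were called higher in the Ter119-low and 12.4% in the Drosha-null library. Trim25 (628 and 644 counts in the control and Ter119-low libraries) and Samhd1 (515 and 502) were the most abundant. The call was of Bst2, tetherin, with 5, 20 and 41 counts in the control, Ter119-low and Drosha-null libraries (1.81 [0.46 to 3.69], fractional). Immediate early and heat shock genes had 1 of 24 called higher, 0 lower and a median of 0.01. That call was of the AP-1 gene Junb (6, 17 and 34), whereas Hspa8 (26118 and 29326, 0.08) and Hsp90ab1 (17753 and 18117, −0.06) were the most abundant, and among members with at least 20 counts Ier3 (28 and 17, −0.79) and Ier2 (34 and 58, 0.68) had the largest ratios.

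Integrin and adhesion genes had 0 of 17 called in the Ter119-low library and a median of 0.07, whereas for the Drosha-null library 10 of 19 were called higher, with a median of 1.04. Of all measured genes 5.66% were called either way in the Ter119-low library and 12.4% higher in the Drosha-null library. Fn1, fibronectin, had 741 counts in the control, 621 in the Ter119-low and 2683 in the Drosha-null library (−0.34 [−0.50 to −0.18] against 1.45). Talin gene Tln1 had 567, 620 and 1086 (0.04 for Ter119-low). The tetraspanin gene Cd9 had 46 and 26 in the control and Ter119-low libraries (−0.90), and Tln2 had 35 and 57 (0.61), both with fractional counts.

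Markers of other cells were few in both libraries and not more abundant in sum in the Ter119-low library, megakaryocyte markers aside. The sums of counts in the control, Ter119-low and Drosha-null libraries were 127, 122 and 306 for 18 endothelial markers and 77, 70 and 369 for heart muscle markers. They were 61, 25 and 74 for macrophage, 172, 169 and 274 for mesenchyme and 8, 4 and 23 for neutrophil, mast and lymphoid markers. Neural markers summed to 363, 344 and 476 counts, markers of yolk sac endoderm and liver to 31, 21 and 18, and markers of epithelium and placenta to 164, 137 and 72. Megakaryocyte and platelet markers summed to 483, 590 and 897, with all 6 measured members above 0 and 0 called.

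Of the 42 different markers measured on these lists 7 were called, all 7 lower in the Ter119-low library (16.7%, against 2.76% of all measured genes). All 7 were under 3 CPM in both libraries, as were 31 of the 42, and among all genes between 1 and 3 CPM 182 were called higher and 167 lower of 1812 (19.3% in all). Tnnt2, Cd68 and Apoe were under 1 CPM in the Ter119-low library. They were thus measured through the control alone, which favours a lower call. The shares are therefore not like for like, and the 7 calls are a description only. The 7 were the endothelial receptor gene Kdr (22 counts in the control against 9 in the Ter119-low library), the heart troponin gene Tnnt2 (16 and 0), the macrophage gene Cd68 (17 and 5), Apoe (22 and 8), and the neural genes Nefl (15 and 4), Pax6 (18 and 5) and Stmn3 (11 and 1). Tnnt2 was 5.66-fold lower by the floor, with an interval up to −2.03 (log2). In the control and Ter119-low libraries Vwf had 15 and 26, Egfl7 had 12 and 20, Ttn had 37 and 42, Actc1 had 19 and 9, Lyz2 had 22 and 18, Lyz1 had 6 and 1, and Mpo had 6 and 0. Sparc had 56 and 47, Col3a1 had 22 and 29, Col1a2 had 22 and 13, Cubn had 5 and 3, and Foxa2 had 3 and 5. Nes had 85 and 104, Tubb3 had 59 and 54, Dcx had 50 and 41, Synb had 109 and 85 (6 in the Drosha-null library), Ascl2 had 20 and 22, and Krt19 had 14 and 6. Itgb3, Itga2b and Tubb1, which megakaryocytes share with other blood cells or are known for, had 312 and 372, 79 and 96, and 42 and 50.

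Markers of definitive, fetal-liver-type erythroblasts had 1 of 10 called higher (Hbb-b2), 2 lower (Myb and Sox6) and a median of −0.10, with 5 of 10 above 0 by total counts. Besides the adult alpha globins the most abundant was Car2, carbonic anhydrase, with 16609 counts in the control, 17600 in the Ter119-low and 16614 in the Drosha-null library (−0.00 for Ter119-low). Of the genes that define erythroblasts, embryonic globins, Slc4a1 and Tfrc were abundant in both libraries, as the labelled cell type asks.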

How the data were processed

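Total RNA of sorted erythroblasts was sequenced, with 1 library in each of 3 groups, which were assigned by their labels alone. The authors' deposited tables set each cKO library beside the control and, per the file headers and values, hold expected counts per gene (estimated, fractional for 1188 genes in the columns compared) and FPKM. The deposited ratios, p-values and FDR were not used. No source used here names the aligner, the counting program or the genome build, so no gene coordinates are printed.

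The tables (14300 and 14640 genes, 13882 shared, control counts differing for 0) were joined by gene ID, counts were rounded, and 21 symbols turned into dates by a spreadsheet were restored. TMM factors (edgeR 4.0.16, R 4.3.3) over the 3 libraries were 0.885 for the control, 0.946 for Ter119-low and 1.20 for Drosha-null. Ratios, exact 95% intervals and calls were computed with Python 3.11.15, NumPy 2.4.6, SciPy 1.17.1 and pandas 2.3.3 among genes at 1 CPM or more in either library; the floor of 3 counts is 0.357 CPM in the control and 0.337 in the Ter119-low library. The procedure was run on simulated whole counts that vary by counting error alone. Such data hold no spread between pools and no split counts, so the calls were not tested against these. Alternatives were other scalings (DESeq2 1.42.0 size factors among them), filters, thresholds and the deposited FPKM. 3′ UTRs are from GENCODE M21; miR-486a-5p was not analysed here.

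Members, gene lists and rules were chosen with earlier results of these data known. Named genes are Drosha, Dgcr8, Dicer1, Cdh5, Tfrc and all measured globins, and the 12 genes at either end when ranked by whichever interval limit is closer to 0, with 10 CPM or more, without predicted genes and ribosomal RNA. From each list they are the 2 most abundant members, the 2 with the largest ratios among those with at least 20 counts and every called member where 5 or fewer were called, and from each list of other cells the 3 most abundant. Further list members were named after their values were seen, to show the roles on a list. A few genes that the rule picks are not reported here.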

Additional observations from a re-analysis of the deposited data

How the results depend on the processing

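No paired analysis was possible because each group has 1 library. Counts of genes called higher and lower in the Ter119-low library (307 and 292) followed the rule: 17 and 14 with a filter of 10 CPM, 543 and 519 with a ratio of 1.5, 183 and 149 with a ratio of 3, and 185 and 183 with a 99% interval. The other alternatives gave 275 to 397 higher and 221 to 365 lower. Total-count scaling gave 349 and 221 and the deposited FPKM 390 and 250, so the split leaned to higher genes under both. With total counts 5 of 47 list medians and 55 of 164 named genes moved by more than the half-width of their interval, with length classes subtracted 3 of 47 and 20 of 165, and with 0.5 replaced by 2 counts added 0 of 47. Of the called genes put through the alternatives, none turned direction. Single genes were not run under the changed filters and thresholds. Called markers of non-erythroid cells and genes named only after their values were seen were run by total counts at most. Depth limits genes under 10 CPM, where the interval is wide, and the spread between pools of embryos is unknown throughout.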

Other observations

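Some genes under 10 CPM stood far apart, and those given here were chosen after their values were seen. Counts are in the order control, Ter119-low and Drosha-null. The gene with the highest ratio was Gm20605, a predicted gene with fractional counts (0, 84 and 42, 26.4-fold higher in the Ter119-low library by the floor). The one with the lowest was Moap1, a modulator of apoptosis, also fractional (35, 0 and 1, 12.4-fold lower by the floor). Of genes with whole counts, Ripk3, the kinase of necroptosis, had 2, 23 and 92 counts (ratio 3.15 [1.42 to 6.57]), Pm20d2, a peptidase gene, had 0, 20 and 75 (6.29-fold higher by the floor), and Tcirg1, a subunit of the proton pump, had 6, 36 and 45 (2.41). On the lower side Naglu, a lysosomal enzyme gene, had 21, 1 and 4 counts (−3.93). Sulf1, which trims heparan sulfate (22, 2 and 17, −3.26), Emb, the membrane glycoprotein embigin (25, 3 and 25, −2.95), and Xylt2, which starts glycosaminoglycan chains (47, 7 and 48, −2.75), were low in the Ter119-low library, and their Drosha-null ratios were −0.77, −0.41 and −0.38.

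X-linked genes were looked at after Xist, Mid1 and Mageb16 were seen among the highest genes, so the values are a description. On the X chromosome 353 genes were measured, 11 of them called higher (3.12%, against 2.9% of all measured genes) and 5 called lower (1.42%, against 2.76%), and the median log2 ratio was 0.04. The medians of the 19 autosomes ran from −0.03 to 0.03. Only some of the X-linked genes known to escape inactivation were looked at. They were Kdm6a (436 counts in the control, 639 in the Ter119-low and 566 in the Drosha-null library, 0.47), Kdm5c (616, 857 and 790, 0.39), Eif2s3x (3343, 4029 and 3251, 0.18) and Ddx3x (2593, 3200 and 5146, 0.22). Of the Y-linked genes Eif2s3y had 236, 147 and 195 counts (−0.77), Ddx3y 125, 148 and 283 (0.16), Uty 41, 55 and 102 (0.33) and Kdm5d 87, 88 and 61 (−0.07). The 4 Y-linked genes did not share a direction. All 3 libraries held RNA of Xist and of Y-linked genes, and the labels give no sex of the embryos in a pool.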
